A study of Mus musculus with 18 samples.

Results

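The genes described here encode 9 chains of cytokine receptors through which helper and cytotoxic T cells sense interleukin 4 (IL-4), IL-6, IL-12, interferon gamma (IFN-γ), IL-10 and IL-21. They were chosen by name (Il4ra, Il6ra, Il6st, Il12rb1, Il12rb2, Ifngr1, Ifngr2, Il10ra and Il21r), 9 of the 43432 genes in the RNA-seq table, together with the 81 of 27729 mouse GCLiPP peaks named for them. GCLiPP maps where RNA-binding proteins (RBPs) sit on mRNA: UV light crosslinks protein to RNA, mRNA-protein complexes are captured, and the protected RNA fragments are sequenced. The study set out to chart such RBP occupancy in 3′ UTRs of T cells, and used RNA-seq with and without actinomycin D, which blocks transcription, to follow mRNA levels.

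All cells were primary T cells of C57BL/6 mice (C57BL/6 J in the study's methods) activated with anti-CD3 and anti-CD28 and cultured for 5 days. The group called Th2 consisted of CD4 T cells grown with IL-4, anti-Ifn-gamma and IL-2, and the group called CD8 consisted of CD8 T cells grown with IL-12 and IL-2, so the ligands of the IL-4 and IL-12 receptors, and an antibody against IFN-γ, were part of the culture and cannot be told apart from the cell type. Resting cells were replated in fresh medium for the last 4 h, and stimulated cells received PMA and Ionomycin, which bypass the T cell receptor, for that time. Each of the 4 combinations was sequenced by RNA-seq once without actinomycin D (untreated) and once with it, giving 8 libraries. The sample records list UV light of 254 nm at 8000 mJ for the RNA-seq samples as well as for the GCLiPP samples. The study's methods describe the drug as added after the stimulation and kept for several lengths of time, and do not say which of these the RNA-seq libraries had. The GCLiPP samples comprised 3 experiments of Th2 and 2 of CD8 cells, resting and stimulated, and were deposited as a single pooled peak list.

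Cytokine receptors of this class have no kinase of their own. Ligand binding brings receptor chains together, and the tails of the signalling chains carry Janus kinases (JAKs), which then phosphorylate STAT transcription factors. Which chains a T cell makes therefore sets which cytokines it can answer: IL-4 signalling through STAT6 is the classic Th2 route, and IL-12 signalling through STAT4, together with IFN-γ signalling, is the route of helper type 1 and cytotoxic cells.

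RNA levels are given as scaled reads, the reads of a gene after division by the size factor of its library, with no correction for gene length, and the libraries held between 24154849 and 31042504 reads assigned to genes. The markers matched the labels for the most part. Cd4 ranged from 20061 to 39568 scaled reads in Th2 and from 25.9 to 281 in CD8 libraries, Cd8a from 10516 to 15750 in CD8 and from 1331 to 2401 in Th2 libraries, and Cd3e was present in all 8 (4479 to 7500). Exceptions were Il1rl1, listed as a Th2 marker, at 50.6 to 113 in Th2 and 2325 to 3563 in CD8 libraries, and Gzma, listed as a CD8 marker, at 17761 to 30403 in Th2 and 2845 to 5607 in CD8 libraries. The CD8 markers Eomes (68.1 to 369 in Th2 and 111 to 715 in CD8 libraries), Tbx21 (73.6 to 2903 and 436 to 5985) and Prf1 (1274.5 to 3172 and 1981 to 12517) overlapped in range. Their CD8 library was the higher in each matched pair. Gzmb was high in both, at 92569 to 149171 in Th2 and 255366 to 476654 in CD8 libraries. Every condition rests on 1 library, so matched libraries stood in for replicates, and p-values measure only the spread between these libraries. The study's methods describe cells cultured from 3 mice, and nothing in the sources used here says which libraries came from separate cultures. A lower level in these bulk samples may mean fewer cells with the mRNA or less of it per cell, which cannot be told apart.

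The 3′ UTRs of all 9 receptor genes carried GCLiPP peaks, between 2 and 24 per gene, against a median of 2 over the 6689 genes with any peak. Il12rb1, the chain shared by the IL-12 and IL-23 receptors, had 24 peaks, a number reached by 60 genes in all. Il4ra, the ligand-binding chain for IL-4 that also serves IL-13, had 18 peaks. Il6ra had 10, Il12rb2 8, Il21r 7, Il6st 5, Il10ra 4, Ifngr1 3 and Ifngr2 2. Peaks were 70 nucleotides long, and each has a score, a whole number of 13 or more whose meaning is not given in the sources used here. The median score was 25 for the receptor peaks and 24 for all peaks, so the typical score of a receptor peak was close to that of any peak. The list has no value per experiment, and no statement on a cell type or on stimulation can be made from it. Of the 81 names, 8 (9.88%) had the prefix rapidmain, against 6.42% of all peaks with a prefix that begins with rapid, and none was of the 364 peaks whose prefix names 1 cell type.

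**Figure D1:**
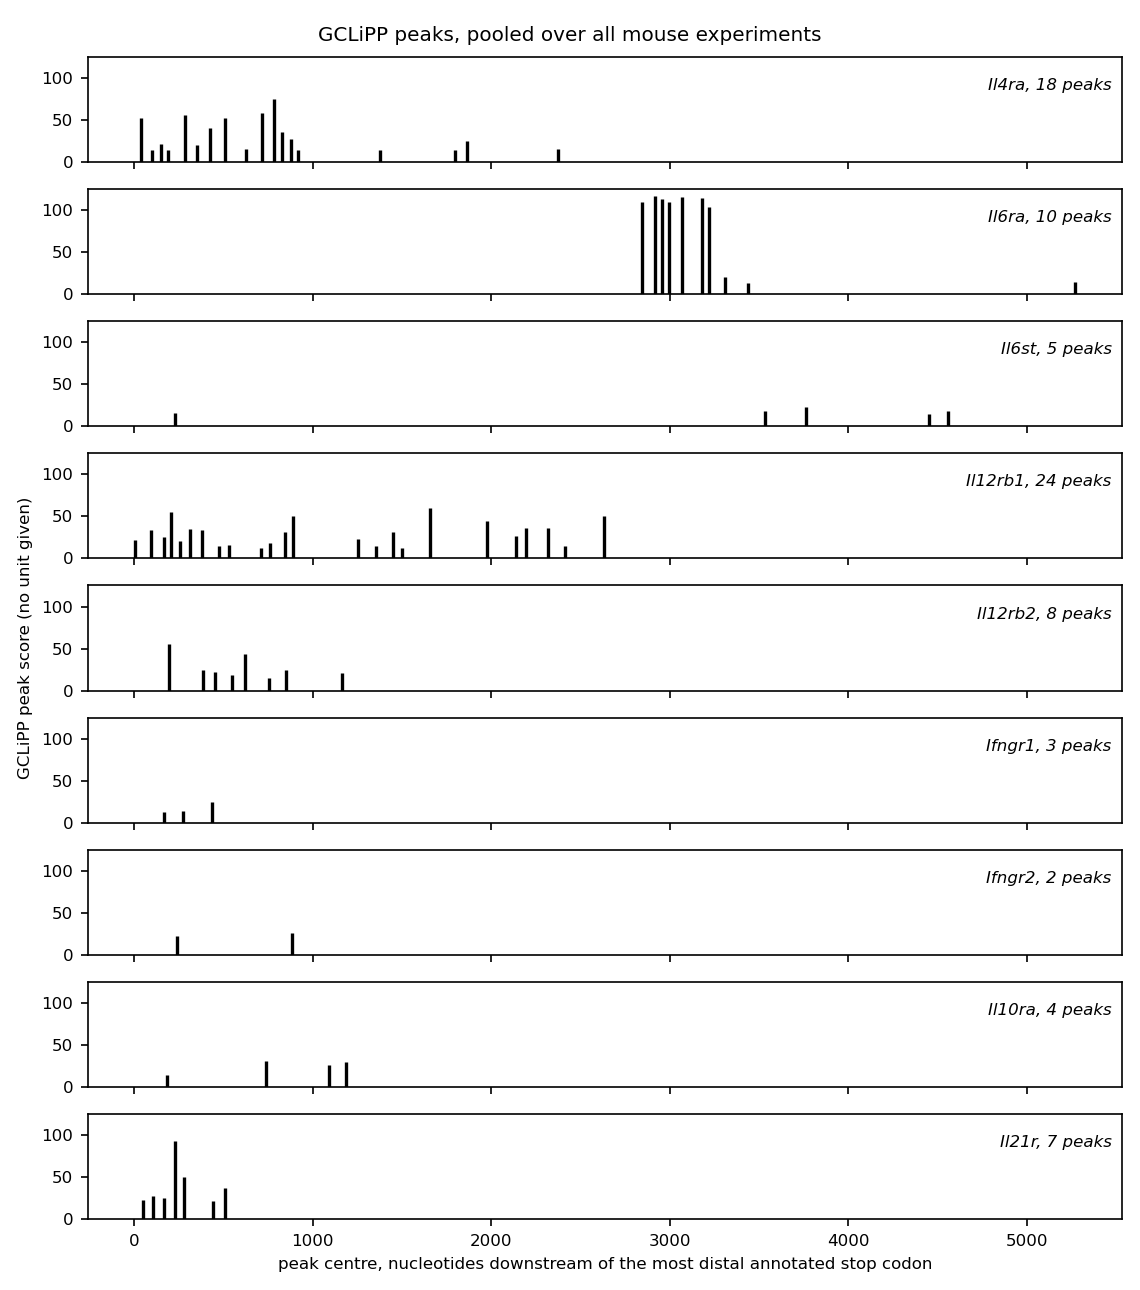
Each line is 1 of the 81 GCLiPP peaks, placed by the distance in nucleotides from the most distal annotated stop codon of its gene to the centre of the peak (horizontal axis), with its score as height (vertical axis, no unit given). The 7 tall lines of Il6ra, with scores of 104 to 117, stand side by side between 2842 and 3218 nucleotides after the stop codon, while the peaks of Il21r and Ifngr1 all lie within 508 nucleotides of it. For Il21r and Ifngr1 the last peak ends close to the gene end, so their peaks span most of a short 3′ UTR.

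The highest scores among the receptors belonged to Il6ra, the chain that binds IL-6. Its peaks fell into a run of 7 with scores of 104 to 117, all within chr3:89867911-89868357 (mm10, minus strand), and 3 others with scores of 13, 14 and 20. The lowest of the 7 ranked 1768th and the highest 1500th of all 27729 peaks. All 10 lie in the 3′ UTR of the transcript Il6ra-202 (GENCODE M21) and all lie beyond the Il6ra gene end that the RNA-seq table uses (chr3:89869324-89913162), so reads from this stretch may be missing from the Il6ra level given below.

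The run lies on a tandem repeat rich in guanine. The 7 peaks consisted of 50% to 54.3% G, a share of 50% or more that 0.189% of all peaks with a sequence reached, while the other 3 Il6ra peaks had 22.9% to 32.9% G and the median over all peaks was 24.3%. One stretch of 30 bases stands 9 times in Il6ra-202, at spacings of 38 to 73 bases over 404 bases, and in no transcript of any other gene. It is shown at its first copy, with runs of 3 or more guanines in capitals.
Il6ra repeat, chr3:89868294-89868323, minus strand: tGGGaGGGGGcaggccagctGGGGaGGGtc
Each peak of 70 bases holds 41 windows of 30 bases, and in 5 of the 7 peaks all 41 windows occur more than once in the transcript (35 and 32 in the remaining pair), against 0 in the other 3 peaks. A read from such a window has several places to align within the gene, and how the aligner's placement bears on the near-equal scores was not tested.

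Il4ra peaks were densest in the first part of the 3′ UTR of Il4ra-201. The first 14 lay between 38 and 920 nucleotides after the stop codon, with scores from 14 to 75, and the highest, at chr7:125577798-125577867, ranked 2780th of all peaks. The other 4 were scattered out to 2374 nucleotides with scores of 15 to 25. Il21r, the chain specific for IL-21, had its 7 peaks centred within 508 nucleotides after the stop codon. They reached almost to the gene end used for its RNA level (chr7:125633570), since the last peak ended at chr7:125633531. The score of 93 at chr7:125633179-125633248 stood above the remaining 6 (21 to 50) and ranked 2076th of all peaks.

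Il12rb1 differed in that 16 of its 24 peaks reached or lay past the gene end of both the RNA-seq table and GENCODE M21 (chr8:70821424), reaching 2634 nucleotides after the stop codon at chr8:70823468-70823537. The highest Il12rb1 score, 60, was among these 16 (chr8:70822489-70822558). Reads there may not be part of the Il12rb1 level either. Il12rb2, the signalling chain of the IL-12 receptor, had 8 peaks with scores of 15 to 56, of which 1 lay past its annotated end. All 8 lie inside Serbp1, a gene on the opposite strand. Its level was 12251 to 17780 scaled reads in Th2 and 20516 to 22320 in CD8 libraries, and although the study's methods name a stranded library kit, the sources used here do not say whether the counting used strand, so whether reads of Serbp1 and Il12rb2 were kept apart is not known.

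The remaining 4 genes had 2 to 5 peaks each, with scores of at most 31. Il6st, which encodes gp130, the signalling chain shared by IL-6 and its relatives, had 5 peaks with scores of 15 to 23, 1 of them 226 nucleotides and the others 3536 to 4558 nucleotides after the stop codon. Ifngr1, the ligand-binding chain for IFN-γ, had scores of 13, 14 and 25, and Ifngr2, its partner chain, 23 and 26. Il10ra, the chain that binds IL-10, had scores of 14, 26, 30 and 31.

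The highest score of a gene relative to its RNA level varied widely among the 9. Relative to the mean level in the untreated libraries, the highest score of Il6ra was 190 per 1000 scaled reads, which placed it at the 95.7th percentile of the 6489 genes with a peak and a mean of at least 50 scaled reads. Ifngr2 reached 43.7 (74.7th percentile) and Il10ra 21.4 (51.5th), whereas Ifngr1, with a mean level of 5035 scaled reads, was lowest at 4.96 (7.04th percentile). The others lay between 6.52 and 13.6. The RNA level depends on gene length, and the Il6ra level may leave out part of its 3′ UTR, so these ratios are descriptions. The Il6ra score used, 117, is that of a peak on the tandem repeat, where a read has several places to align. Outside the repeat the highest Il6ra score was 20.

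Sequence was at hand for 64 of the 81 receptor peaks and 26458 of all peaks, read from GENCODE M21 transcripts. On the transcript strand, 12 motifs were searched, overlaps allowed: the AU-rich ATTTA and TATTTAT, the Pumilio motif TGTANATA, the run TTTTT, the outline TTCNNNGAA of the element read by Roquin, and the 7-base matches to the seeds (bases 2 to 8) of 7 microRNAs of T cells. At least 1 motif stood in 14 of the 64 peaks (21.9%), against 25.8% of all peaks. ATTTA stood in 5 (7.81%) against 7.90% of all, TTTTT in 4 (6.25%) against 12.8%, TTCNNNGAA in 3 (4.69%) against 1.59% and TGTANATA in 1 (1.56%) against 1.72%. The peaks with ATTTA were all of Il12rb2 or Il21r, and overlapping Il21r peaks shared a site, which is counted for each. TATTTAT stood in none, against 1.32% of all. A match says only that the letters are there.

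The sites below are those under the strongest peaks of Il21r and Il4ra that hold a motif, and the 1 Pumilio match within the listed bounds, at Il10ra, with the motif in capitals.
Il21r, ATTTA, chr7:125633222-125633250, plus strand: ccttgttccttaATTTAataccattggtt
Il4ra, TTCNNNGAA, chr7:125577525-125577553, plus strand: acagaggccaTTCATTGAAcagccaggac
Il10ra, TGTANATA, chr9:45255308-45255335, minus strand: agtgagggtcTGTAGATAccagcagagc
The Il21r site lies in its peak with score 93 and at the start of the overlapping peak with score 50. The Il4ra site lies in a peak with score 52 and the Il10ra site in the weakest Il10ra peak, with score 14.

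Seed matches stood in 3 receptor peaks, 1 each for let-7a-5p (1.56% of the peaks against 0.472% of all), miR-24-3p (1.22% of all) and miR-29a-3p (0.892% of all). None of the 64 held a match to miR-155-5p, miR-181a-5p, miR-17-5p or miR-27a-3p, which stood in 0.306% to 0.952% of all peaks. The mature microRNAs (RefSeq, GRCm38.p6) are shown 5′ to 3′ with the seed in capitals, each followed by its site with the match in capitals.
let-7a-5p: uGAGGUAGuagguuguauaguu
Il4ra site, chr7:125578808-125578836, plus strand: ccatccaagatCTACCTCctgtgggcatc
miR-24-3p: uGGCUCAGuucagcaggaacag
Il21r site, chr7:125633014-125633042, plus strand: agaagaggcctCTGAGCCtggcatttaca
miR-29a-3p: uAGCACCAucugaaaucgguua
Ifngr2 site, chr16:91563248-91563276, plus strand: aaacctgtgtgTGGTGCTttctccagtgt
The peaks with these sites had scores of 15 (Il4ra), 23 (Il21r) and 23 (Ifngr2). When the bounds were widened by 20 bases on each side, a second receptor peak held the miR-24-3p match, a second held TGTANATA, 7 in place of 4 held TTTTT (11.3% against 21.4% of all peaks), and 20 of 62 peaks (32.3%) held at least 1 motif, against 39.0% of all.

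Turning to the mRNAs, levels differed most between the cell types. Over all 8 libraries, with stimulation and actinomycin D as further terms, 7 of the 9 genes differed between CD8 and Th2 cells, against 21.5% of the 10972 genes tested (limma on log2(scaled reads + 1), Benjamini-Hochberg adjusted p below 0.05, mean of at least 50 scaled reads over all libraries, which all 9 passed, Ifngr2 through its Th2 level alone). Il12rb2, Ifngr1 and Il6st were higher in CD8 cells, 3 of 9 against 9.97% of all genes, and Il4ra, Il6ra, Ifngr2 and Il10ra were higher in Th2 cells, 4 of 9 against 11.5%. For 6 of the 9 genes the 4 Th2 and the 4 CD8 libraries did not overlap, against 16.0% of all genes tested. Without the CD8 stimulated or the Th2 resting library with actinomycin D the calls over all genes fell from 2358 to 1466 and 1534, while the same 7 receptors were called. In the 4 untreated libraries alone, 5 of the 9 passed, against 10.8% of all genes. Ifngr2, which had to differ given how it passed the filter, is in the counts of 7, 4, 6 and 5.

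Il4ra was measured at 22742 scaled reads in resting and 10836 in stimulated Th2 cells, and at 1685 and 3838 in the corresponding CD8 cells. With actinomycin D the values were 10991, 8536, 1284 and 1221 in the same order. Every Th2 library was above every CD8 library. The fitted difference was -2.79 ± 0.32 (log2, CD8 minus Th2, ± SE, limma adjusted p = 0.000809), and in the untreated libraries alone, -2.63 ± 0.57 (limma adjusted p = 0.0647), it missed the threshold.

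The chains of the IL-6 receptor went opposite ways. Il6ra stood at 1105 and 1180 scaled reads in resting and stimulated Th2 cells and at 68.4 and 109 in CD8 cells, and with actinomycin D at 1371, 1169, 64.0 and 69.5. The fitted difference was -3.97 ± 0.20 (limma adjusted p = 1.62e-05), and the lowest Th2 library was over the highest CD8 library by far more than the Th2 libraries differed among themselves.

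Il6st, its signalling partner, was instead higher in CD8 cells. It was measured at 1004 (resting) and 1616 (stimulated) scaled reads in Th2 and 2668 and 2176 in CD8 cells, and with actinomycin D at 692, 826, 1400 and 1533. The CD8 library was higher in each of the 4 matched pairs, by 0.94 ± 0.17 (log2 ± SE, limma adjusted p = 0.00634), though the ranges of the cell types overlapped.

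The chains of the IL-12 receptor also differed. Il12rb2 was at 14341 and 12906 scaled reads in resting and stimulated CD8 cells and at 3969 and 3149 in Th2 cells, and with actinomycin D at 12710 and 14253 in CD8 and 4071 and 4900 in Th2 cells. CD8 libraries were higher by 1.77 ± 0.14 (log2 ± SE, limma adjusted p = 0.000149) and all 4 lay far above all 4 Th2 libraries. For Il12rb1 the difference was -0.64 ± 0.37 (limma adjusted p = 0.265) and missed the threshold, although the CD8 library was the lower in each of the 4 pairs. With the matched conditions as a block in place of additive terms, Il12rb1 passed as well and 8 of the 9 genes were called.

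The chains of the IFN-γ receptor also went opposite ways. Ifngr1 stood at 9664 and 6640 scaled reads in resting and stimulated CD8 and at 2653 and 1185 in Th2 cells, and with actinomycin D at 5942, 6493, 1331 and 1472, a difference of 2.16 ± 0.22 (log2 ± SE, limma adjusted p = 0.000467). Ifngr2 was the reverse, with 782 and 1493 scaled reads in resting and stimulated Th2 cells and 22.8 and 84.2 in CD8 cells, and with actinomycin D 451, 634, 7.87 and 16.9. The fitted difference of -5.00 ± 0.28 (limma adjusted p = 2.84e-05) is given as a description: Ifngr2 passed the filter on low values through the Th2 libraries alone (mean 840 scaled reads, against 32.9 in CD8 libraries), so a gene kept in this way had to differ. The 4 CD8 values of Ifngr2 rest on 22, 71, 8 and 17 reads, so that their ratios carry a large counting error, but the lowest Th2 library still held 490 reads.

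Il10ra was higher in Th2 cells, at 3370 and 1444 scaled reads resting and stimulated against 587 and 389 in CD8 cells, and with actinomycin D at 591 and 1052 against 174 and 362. The fitted difference was -1.93 ± 0.38 (limma adjusted p = 0.0105), and the lowest Th2 library (591) was only just above the highest CD8 library (587). For Il21r, which both cell types made, the difference was -0.56 ± 0.24 (limma adjusted p = 0.140), with 6872, 7224, 3162 and 3942 scaled reads in Th2 libraries against 3622, 9605, 1693 and 2237 in CD8 libraries, each in the order resting, stimulated, resting with and stimulated with actinomycin D.

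**Figure D2:**
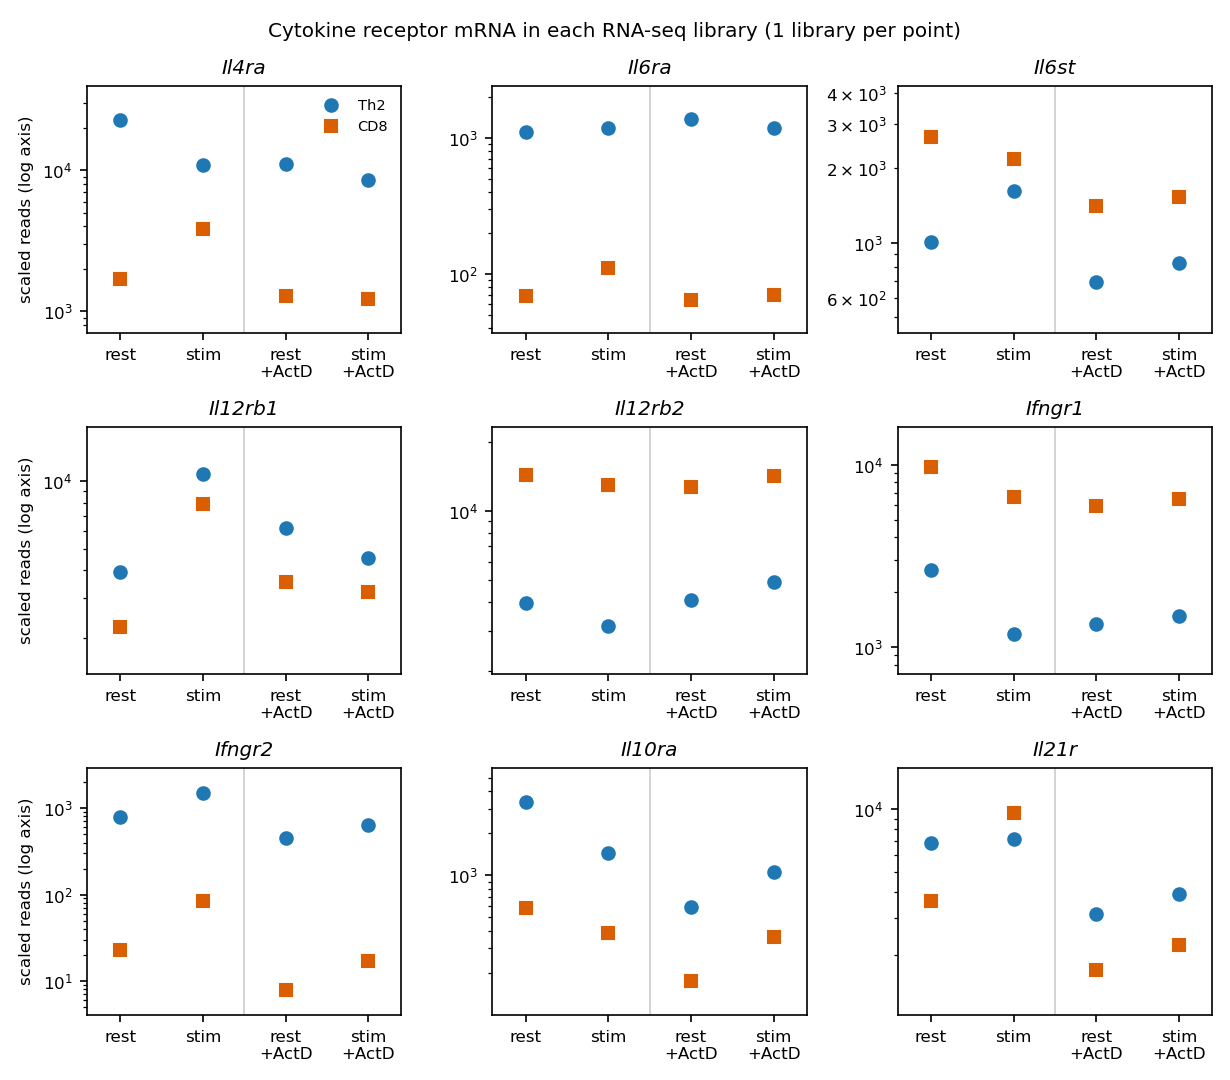
Scaled reads of each receptor gene (vertical axis, logarithmic) in the 8 RNA-seq libraries, by stimulation and actinomycin D (horizontal axis); circles are Th2 and squares are CD8 libraries, 1 library per point. The circles lie above the squares throughout for Il4ra, Il6ra, Ifngr2 and Il10ra and below them for Il12rb2 and Ifngr1.

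Of the markers of other cells, the sums for B cells and for stromal and endothelial cells moved with this contrast. The summed level of 6 B cell markers was 795 to 1029 scaled reads in Th2 and 153 to 257 in CD8 libraries, and Pax5 stood at 0 in 3 CD8 libraries. The summed level of 5 stromal and endothelial markers, almost all of it Pecam1, was 1190 to 1938 against 357 to 807. The myeloid and natural killer sums overlapped between the cell types. The 8 measured myeloid markers summed to 160 to 484 in Th2 and 114 to 460 in CD8 libraries, with S100a8 at 0 in all 8. Their sum was 114 to 178 in untreated libraries and 276 to 484 with actinomycin D. The 5 natural killer markers summed to 20250 to 34837 and 17659 to 32188. Nearly all of that was Gzma, also listed as a CD8 marker, and Nkg7 (2391 to 4360 in Th2 and 14758 to 26407 in CD8 libraries). Ncr1, Klrb1c and Klra8 stood at 0 to 172. The part of such cells in the levels of Il4ra, Il6ra, Ifngr2 or Il10ra was not tested. Besides Cd8a, Cd8b1 was also measured in Th2 libraries, at 1402 to 2361 scaled reads against 6269 to 9591 in CD8 libraries. The part of any CD8 T cells in the Th2 levels of Il12rb2, Ifngr1 or Il6st was not tested either.

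Per kilobase of exon within the gene bounds of the table, the order of the receptors was different in the cell types. In resting Th2 cells Il4ra led with 4420 scaled reads per kb, followed by Il21r (2700), Il12rb1 and Ifngr1 (1260 each), Il12rb2 (1050), Il10ra (964), Il6ra (330), Ifngr2 (240) and Il6st (90.8). In resting CD8 cells Ifngr1 led with 4580 scaled reads per kb, followed by Il12rb2 (3780), Il21r (1430), Il12rb1 (714), Il4ra (327), Il6st (241), Il10ra (168), Il6ra (20.5) and Ifngr2 (7.01). Over the 4 libraries of a cell type, neighbours in these orders overlapped in range, with the exception of Il10ra (49.8 to 168) and Il6ra (19.1 to 32.6) in CD8 cells and, narrowly, of Il12rb1 (1261 to 3436) and Ifngr1 (561 to 1256) in Th2 cells.

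Actinomycin D lowered 4 of the 9 mRNAs and raised none, with 21.9% of all genes called lower (pairs of matched libraries as blocks). The values are relative to the other genes, because the size factors hold the median gene near 0: the median difference was 0.00 (log2) over all genes tested and -0.73 over the 9 receptors. When the libraries were instead scaled to ribosomal protein genes, the median of all genes shifted to -0.43, the split of calls went from 1842 higher and 2403 lower genes to 104 and 3545, and the 4 receptors stayed lower. Quantile normalisation gave 2597 higher and 2012 lower genes.

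Il21r fell by 1.30 ± 0.22 (log2 ± SE, limma adjusted p = 0.00732), from 6872 to 3162 scaled reads in resting and 7224 to 3942 in stimulated Th2 cells, and from 3622 to 1693 and 9605 to 2237 in the CD8 cells. All 4 pairs moved the same way. Ifngr2 fell by 1.43 ± 0.28 (limma adjusted p = 0.0114), again in each of the 4 pairs, with the low read counts in CD8 cells given above.

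Il6st fell by 0.73 ± 0.15 (limma adjusted p = 0.0128) and Il4ra fell by 0.86 ± 0.24 (limma adjusted p = 0.0323), each in all 4 pairs. These calls rested on single pairs. Without either CD8 resting library, with or without the drug, Il6st missed the threshold, and without either Th2 resting or either CD8 stimulated library Il4ra did.

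Il10ra showed the largest drop in a single pair of the 9 genes, from 3370 to 591 scaled reads in resting Th2 cells, but the stimulated pairs moved little (1444 to 1052 in Th2 and 389 to 362 in CD8 cells), and the difference of -1.20 ± 0.41 (limma adjusted p = 0.0575) missed the threshold. Il10ra was called under ribosomal scaling, by DESeq2 (adjusted p = 0.0108) but not edgeR (adjusted p = 0.0713), without either stimulated CD8 library, and with additive terms in place of the blocks (limma adjusted p = 0.0352), a fit in which Il4ra was not called (limma adjusted p = 0.0601). For Ifngr1 it was -0.35 ± 0.23, for Il12rb1 -0.31 ± 0.40, for Il6ra -0.11 ± 0.21 and for Il12rb2 0.16 ± 0.16, with limma adjusted p of 0.266 to 0.689. With a model that also holds the interaction of stimulation and actinomycin D, 7 of the 9 were called lower, Il10ra, Ifngr1 and Il12rb1 in addition. No difference in the effect of actinomycin D between the cell types was called for any of the 9 genes, nor for any gene at all (0%, 0 of 10972, 447 at an unadjusted limma p below 0.05, 0 with edgeR and 7 with DESeq2); none of the 9 had an unadjusted p below 0.05.

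**Figure D3:**
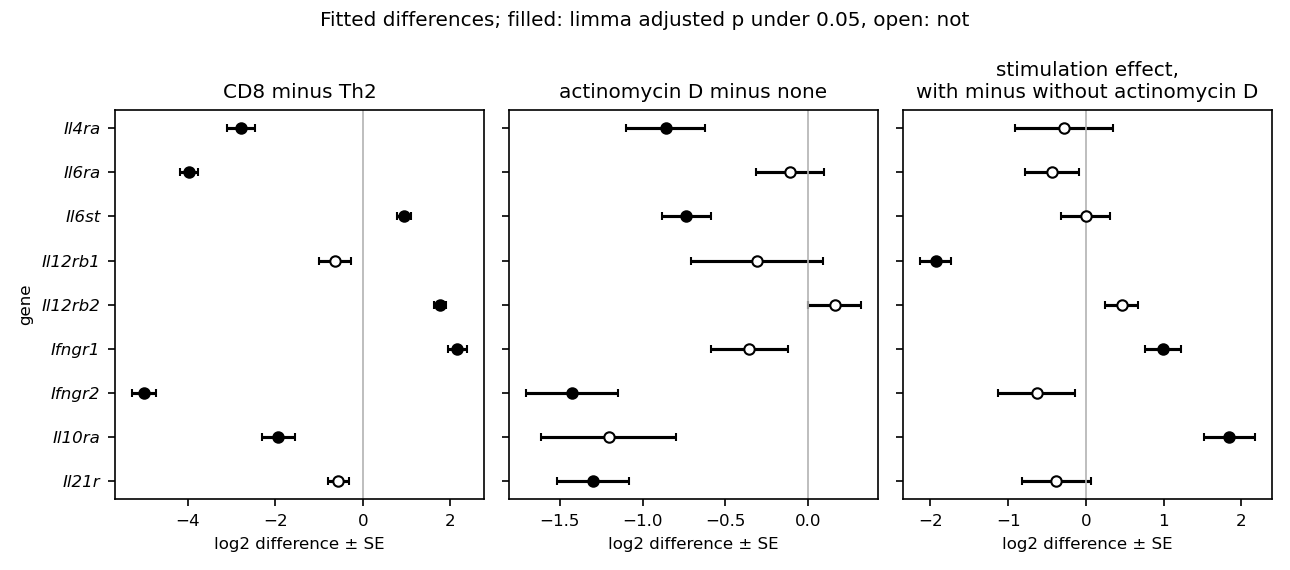
Fitted log2 differences (horizontal axis) with their standard errors for the 9 receptor genes, in CD8 against Th2 cells, with against without actinomycin D, and for the effect of stimulation with against without actinomycin D. Filled points passed a limma adjusted p of 0.05: 7 in the first panel, 4 in the second and 3 in the third.

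In untreated cells, stimulation raised Il12rb1. It went from 3949 to 10763 scaled reads in Th2 and from 2235 to 7914 in CD8 cells, a rise of 1.64 ± 0.15 (log2 ± SE, 3.11-fold, limma adjusted p = 0.0252), 1 of the 9 genes against 6.59% of all genes called higher. The fit has 1 residual degree of freedom, and without a filter on low values no gene was called.

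Several others differed by more than 0.8 (log2) without passing. Ifngr2 was at 1.38 ± 0.29 (limma adjusted p = 0.0572), Ifngr1 at -0.85 ± 0.20 and Il10ra at -0.91 ± 0.21 (limma adjusted p = 0.0633 each). Il4ra went from 22742 to 10836 scaled reads in Th2 and from 1685 to 3838 in CD8 cells, so that its mean change, 0.06 ± 0.57, says little of either. The difference between the cell types in the effect of stimulation on Il4ra was 1.27 ± 0.48 (log2 ± SE, unadjusted p = 0.0351) over all 8 libraries, with a limma adjusted p of 0.9998. It was the only one of the 9 with an unadjusted p below 0.05. No gene was called for this difference (0%, 0 of 10972, 27 at an unadjusted limma p below 0.05, 0 with edgeR and 0 with DESeq2).

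Over all 8 libraries, with and without actinomycin D, none of the 9 genes was called for stimulation by limma, edgeR or DESeq2, against 0.118% of all genes by limma (13 genes, and 3 without the untreated resting Th2 library or the stimulated CD8 library with actinomycin D). At an unadjusted p below 0.05 there was 1, Ifngr2, at 1.07 ± 0.28.

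The effect of stimulation on 3 of the 9 receptors was different with actinomycin D, against 14.5% of all genes. Il12rb1 rose on stimulation in untreated cells but with actinomycin D went from 6177 to 4547 scaled reads in Th2 and from 3564 to 3204 in CD8 cells, a difference in effect of -1.93 ± 0.20 (log2 ± SE, limma adjusted p = 0.00578). Seen the other way, both resting cell types had more Il12rb1 with the drug than without it, and both stimulated cell types had less.

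Il10ra and Ifngr1 were lower in stimulated than in resting untreated cells of either type, and higher with actinomycin D. Il10ra went from 591 to 1052 scaled reads in Th2 and from 174 to 362 in CD8 cells with the drug, a difference in effect of 1.85 ± 0.33 (log2 ± SE, limma adjusted p = 0.0187). Ifngr1 went from 1331 to 1472 and from 5942 to 6493, a difference of 0.99 ± 0.23 (limma adjusted p = 0.0339). These calls depend on single libraries. Without the stimulated Th2 library with actinomycin D none of the 3 was called, without either Th2 resting library or either actinomycin D library of CD8 cells only Il12rb1 was, without the untreated resting CD8 library Ifngr1 was lost, and without the untreated stimulated Th2 library 5 of the 9 were called. Scaling to ribosomal protein genes shifts the median of all genes by 0.58 in this comparison, and all 3 kept their sign and call.

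**Figure D4:**
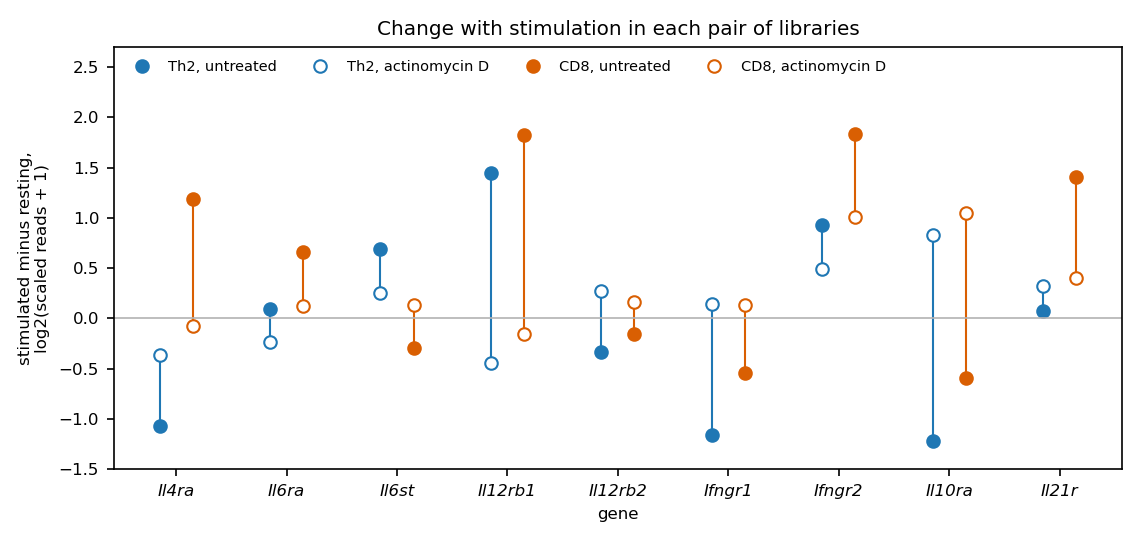
Change from resting to stimulated cells on the log2(scaled reads + 1) scale (vertical axis) for each receptor gene (horizontal axis) in Th2 and CD8 cells; filled points are untreated cells, open points cells with actinomycin D, and each point is the difference of 2 libraries. Il12rb1 drops from 1.45 and 1.82 in untreated cells to -0.44 and -0.15 with the drug, and Il10ra goes from -1.22 and -0.59 to 0.83 and 1.05.

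The rest of the pathway was read from a list of ligands, partner chains, JAKs, STATs and inhibitors. The counts of this list are descriptions, to be read beside the shares of all genes tested. On stimulation of untreated cells 6.59% of all were called higher, and with actinomycin D 21.9% lower. In CD8 cells 9.97% were called higher and 11.5% lower, and for 14.5% the stimulation effect differed with the drug. Of the 10972 genes, 515 were called lower on stimulation and 1842 higher with actinomycin D. Of 8 ligand genes tested (13 listed), 6 rose on stimulation of untreated cells (Ifng, Il4, Il10, Il13, Il21 and Lif), led by Ifng at 5.78 ± 0.36 and Il21 at 3.65 ± 0.19 (log2 ± SE, limma adjusted p = 0.0149 and 0.0130). Between the cell types 6 were higher in Th2 and 1, Ifng, in CD8 cells, with Il13 at -8.22 ± 0.32 and Il4 at -7.63 ± 0.50 (limma adjusted p = 5.31e-06 and 5.47e-05). Both of these differences are descriptions. Il13 (6.89 to 109 scaled reads in CD8 libraries) and Il4 (4.15 to 41.5) passed the filter on low values through the Th2 libraries alone, so they had to differ. Both are in the count of 6 ligands higher in Th2 cells. With actinomycin D 2 were lower, Il10 at -1.70 ± 0.15 and Il13 at -1.25 ± 0.35 (limma adjusted p = 0.00180 and 0.0328). The stimulation effect differed with the drug for 3. It was smaller for Ifng (-3.50 ± 0.90) and Il13 (-1.41 ± 0.35, limma adjusted p = 0.0435 and 0.0410), while Ebi3 rose in untreated cells and fell with the drug.

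Of 10 partner and related chains tested (14 listed), 3 rose on stimulation, led by Il15ra at 1.26 ± 0.17 and Il2rg, the common gamma chain that pairs with Il4ra and Il21r, at 0.91 ± 0.12 (limma adjusted p = 0.0360 and 0.0335). Il2rg was also lower in CD8 cells, at -1.03 ± 0.22, as was Il9r at -4.96 ± 0.58, while 1 chain, Il2rb, was higher (limma adjusted p = 0.0153 and 0.000880 for the first pair). Il9r, at 1.04 to 5.96 scaled reads in CD8 libraries, also passed the filter through the Th2 libraries alone, so its difference is a description. Actinomycin D lowered 3, led by Il7r at -1.37 ± 0.23 and Ifnar1 at -0.84 ± 0.16 (limma adjusted p = 0.00712 and 0.00965). Il2rg and Il27ra rose on stimulation in untreated cells of either type and fell with the drug. The differences in effect were -1.05 ± 0.19 and -1.04 ± 0.19 (limma adjusted p = 0.0190 and 0.0188). Il7r was called in the other direction: it fell on stimulation in untreated cells of either type and rose with the drug.

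Among the 4 JAKs, Jak2 rose on stimulation by 1.99 ± 0.18, was lower in CD8 cells by a log2 difference of -2.68 ± 0.37, and had a stimulation effect that was smaller with actinomycin D by -1.84 ± 0.32 (limma adjusted p = 0.0247, 0.00213 and 0.0166). Jak3, which pairs with the common gamma chain, was higher with actinomycin D (0.96 ± 0.21), as was Tyk2, the kinase of Il12rb1 (0.61 ± 0.19, limma adjusted p = 0.0173 and 0.0421). Jak3 was lower in CD8 cells (-0.86 ± 0.20), and its stimulation effect differed with the drug by -0.91 ± 0.18, with Tyk2 also called (limma adjusted p = 0.0194 and 0.0227 for Jak3). Under scaling to ribosomal protein genes the median of all genes falls with actinomycin D as given above, so a higher level with the drug is relative to the other genes.

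Of the 7 STATs, Stat5a (2.81 ± 0.35) and Stat6 (0.73 ± 0.12) rose on stimulation (limma adjusted p = 0.0323 and 0.0421), and the effect on Stat5a differed with actinomycin D by -3.08 ± 0.40 (limma adjusted p = 0.00959). Stat6 was the other one called lower in that comparison and Stat4 the only one called higher, at 0.95 ± 0.24 (limma adjusted p = 0.0415). Stat4, the factor of the IL-12 receptor, was higher in CD8 cells by 1.16 ± 0.22, while Stat2 (-1.20 ± 0.27) and Stat5b were lower (limma adjusted p = 0.00859 and 0.0170 for the first pair), and Stat2 was higher with actinomycin D by 0.84 ± 0.26 (limma adjusted p = 0.0450).

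Of the 15 inhibitors, 7 were lower with actinomycin D and none higher, led by Pias1 at -1.45 ± 0.19 and Socs1 at -1.31 ± 0.37 (limma adjusted p = 0.00352 and 0.0345). Socs3 (-1.90 ± 0.29), Socs1 (-1.81 ± 0.34) and Socs2 were lower in CD8 cells and Ptpn6 higher (limma adjusted p = 0.00348 and 0.00841 for the first pair). Socs2 (-1.52 ± 0.14) and Pias3 (-1.18 ± 0.17) were lower on stimulation, and that effect differed with the drug by 1.67 ± 0.29 and 1.01 ± 0.24 (limma adjusted p = 0.0252, 0.0374, 0.0176 and 0.0348).

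The tested genes whose pattern over the 8 libraries was most like that of a receptor, by Pearson's r of log2(scaled reads + 1), are given as a description, since the libraries share cell types and treatments and one strong contrast fixes most of r. For Il4ra they were Gna15 (0.981), Carhsp1 (0.976) and Heg1 (0.975), for Il6ra Ighg1 (0.998), Cybb (0.997) and Cyp11a1 (0.997), and for Il6st Iars (0.987), 2310061I04Rik (0.985) and Slc35e3 (0.972). For Il12rb1 they were Stx6 (0.988), Tmc8 (0.988) and Tfe3 (0.978), and for Il12rb2 Cxcr1 (0.996), Sgk3 (0.996) and Serpinb5 (0.994). For Ifngr1 they were Gbp7 (0.993), Sla2 (0.993) and Zfp945 (0.991), for Ifngr2 Gpr83 (0.997), Ehd2 (0.997) and Tox2 (0.993), for Il10ra Axin2 (0.978), Zfp446 (0.964) and Otub2 (0.963), and for Il21r Gucy1a3 (0.985), Irf4 (0.980) and Pmepa1 (0.973). No receptor of the 9 was among the nearest genes of another. Between the 9 receptors, r was 0.948 for Il12rb2 and Ifngr1, 0.957 for Il6ra and Ifngr2, and -0.882 for the partner chains Ifngr1 and Ifngr2.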

How the data were processed

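GCLiPP and RNA-seq samples of mouse T cells were grouped by the GEO labels. The RNA-seq table deposited by the authors holds a signal per gene, reads aligned with STAR to mm10; the sources used here do not give the counting tool, annotation or strand setting. The study's methods describe FPKM, but the deposited values are not divided by gene length: in each of the 8 libraries 100% of them were whole multiples of 1 step (tolerance 0.01 read), so whole reads could be recovered. The authors' peak file gives 1 score per peak; reads were aligned with Bowtie2, de-duplicated and pooled over experiments before peaks were called in 3′ UTRs. A second gene table with the authors' own fold changes was not used. UV-treated lysate was the source of the untreated RNA-seq libraries. The same UV dose is listed for the actinomycin D libraries, but whether the rest of their preparation was alike is not stated.

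Genes with a mean of at least 50 scaled reads (10972) were tested with limma (3.58.1, trended variance) on log2(value + 1), Benjamini-Hochberg adjusted over all of them, and fold changes are on that scale. edgeR (4.0.16) and DESeq2 (1.42.0), on recovered reads, were alternatives, with another pseudocount (10), other filters (none, or 250), quantile and ribosomal scaling, other model terms and leaving out each library. Peak sequences came from GENCODE M21 transcripts (GRCm38), microRNAs from RefSeq (GRCm38.p6). Windows of 50 bases that other genes share made up at most 1.12% of a receptor (Il12rb2). All 9 genes and 81 peaks are named; pathway genes are named where called, the 2 largest of their role, and for each receptor the 3 genes most alike. Members, lists and tests were chosen with earlier results of these data known. R 4.3.3 and Python were used.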

Additional observations from a re-analysis of the deposited data

Results flagged for a closer look

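The effect of stimulation differed between cells with and without actinomycin D, by the interaction term of the limma fit, for 3 of the 9 receptor genes. The difference (with minus without the drug, log2) was -1.93 for Il12rb1, 0.99 for Ifngr1 and 1.85 for Il10ra, in the same direction in Th2 and CD8 cells for each. No other check for outlying samples could be made, since each condition has 1 library.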

How the results depend on the processing

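None of the 20 called log2 differences changed sign in any of 267 recomputed values, and 241 kept their call; of the differences not called, 72 of 705 values changed sign. The number of receptors called with actinomycin D (4) became 7 with the stimulation by actinomycin D interaction in the model. For stimulation of untreated cells (1), it became 2 with a pseudocount of 10, 0 without a filter on low values, 4 under ribosomal scaling and 4 with DESeq2. For the cell types in untreated cells (5), it became 0 without a filter and 8 with DESeq2. Leaving out 1 library gave 0 to 5 receptors for stimulation by actinomycin D (3), for which all-gene calls ranged from 25 (without the stimulated Th2 library with actinomycin D) to 3315 (without the untreated stimulated CD8 library). For actinomycin D it gave 3 to 4, and all-gene calls of 2220 (without the stimulated CD8 library with actinomycin D) to 4052. For cell type it gave 7 to 8, and 1466 to 2484, and for stimulation over all 8 libraries 0, and 3 to 12 (13 with all libraries, 21 without a filter and 6 with blocks). For the cell types in untreated cells a mean of at least 250 gave 712 all-gene calls, with fewer genes tested. Calls of all genes rose by over 1.5 times to 6776 for actinomycin D with the interaction, 2808 and 2047 for stimulation of untreated cells under ribosomal scaling and DESeq2, 366 for stimulation over all 8 libraries with DESeq2, 4037 for cell type as blocks, and 3894 and 2476 for stimulation by actinomycin D under ribosomal scaling and DESeq2; without a filter 940 were called in the last. Of the differences whose value the report gives, the following turned sign, none of them called. Il12rb2 with actinomycin D did so (-0.27, ribosomal scaling). On stimulation of untreated cells Il4ra (-0.23 with quantile and -0.29 with ribosomal scaling) and Il6st (0.20 in the main fit, -0.15 with ribosomal scaling) did. With 1 library left out, Il6ra (-0.2505 to 0.0672) and Il12rb1 (-0.634 to 0.0251) with actinomycin D did. The causes were not tested. In the 2 comparisons of untreated cells no library could be left out, since no residual degree of freedom would remain. Low counts limit Ifngr2 in CD8 cells. No paired analysis was possible because the GCLiPP replicate numbers have no value per library in the pooled peak list, so they cannot serve as pairs. The RNA-seq libraries have no replicate numbers, and the blocks above join libraries of matched conditions.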
